A study of Homo sapiens with 6 samples.

Results

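Mucin genes encode large proteins whose serine- and threonine-rich repeats carry dense sugar chains, and several of their products are used as pancreatic cancer markers. The genes described here are the rows of the authors' deposited table that bear the symbol of 1 of 10 mucins, 6 of them membrane mucins (MUC1, MUC3A, MUC4, MUC13, MUC16 and MUC20) and 4 secreted, gel-forming mucins (MUC2, MUC5AC, MUC5B and MUC6). Of the 10, 9 were found among the 19830 genes of the table. RNA was measured in PANC-1, an established cell line from a human pancreatic ductal adenocarcinoma, after transfection with 25 nM of SOX9 siRNA or 25 nM of control siRNA. Both arms received Lipofectamine 3000 and were harvested at 48 hours, with 2 libraries per arm, each from pooled transfected cells of the 1 line. SOX9, the target, is a transcription factor that marks duct cells of the pancreas, and the series title names cancer biomarker and cilia genes as its subject. The labels call the 2 libraries of an arm replicates without naming separate cultures. The p-values therefore rest on a spread that may be technical.

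Membrane mucins sit on the apical surface of epithelial cells, where their extracellular part forms a barrier and their short cytoplasmic tail can take part in signalling. Gel-forming mucins are packed in granules, secreted and linked into the mucus that covers stomach, intestine and airway. Normal pancreatic ducts make little MUC5AC, which appears in many precursor lesions and carcinomas of the pancreas.

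The mucin genes had few reads in PANC-1, and no member was called changed by SOX9 siRNA. Genes are called here where the DESeq2 adjusted p of the authors is under 0.05, and the 14063 genes given such a p are termed tested. Of the 9 listed mucins, 5 were tested, 0 rose and 0 fell, beside 1.81% of all tested genes called (0.868% higher and 0.939% lower). At an unadjusted p under 0.05 the count of members was also 0, beside 11.1% of all tested genes. The program limma, on recovered reads, called 0 of the 5 with or without pairing of libraries (12.5% and 0.0% of the genes in those fits) or without any 1 library (at most 0.0427%). The 5 had a median of 0.26 on the log2 scale of the authors' deposited table, 4 above 0 and 1 below, against -0.02 over all tested genes. From recovered reads that median was -0.19 without control library A and -0.018 without SOX9 siRNA library B. In bulk RNA, fewer cells making a mucin and less mucin RNA per cell cannot be told apart.

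Reads per library were recovered from the deposited mean counts by arithmetic. A mean normalized count is the average of 4 whole read numbers, each divided by its library's size factor, and the genes with 2 reads in all fixed those factors. For each listed mucin exactly 1 set of whole reads gave its mean. The libraries of each arm are called A and B, letters given here by size factor, A the larger, that could not be matched to the replicate numbers of the labels. Their size factors were 1.13 and 0.986 for control A and B, and 0.994 and 0.908 for SOX9 siRNA A and B. Reads were sought only for genes with a mean count of at most 500. Over 4686 such tested genes the log2 fold change from recovered reads differed from the deposited one by a median of 0.0010. The largest difference was 0.028. For these genes the recovery used the fold changes only by sign, at genes with 2 reads, to place each library in an arm.

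The libraries of an arm differed from each other, and the differences of both arms were correlated. Over those genes the log2 difference between B and A had an SD of 0.64 in control and 0.56 in SOX9 siRNA. Their mean counts were at most 500, beside a median of 1279 over all tested genes. The differences of the arms correlated across genes with r = 0.61, whose sign depends on how the letters were given. This is a description across genes, which share the libraries and their size factors and are not independent replicates.

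SOX9, the siRNA target, had 3019 and 3350 normalized counts in control A and B and 1346 and 2217 in SOX9 siRNA A and B. Both SOX9 siRNA libraries were below both controls, and library A was the lower of them. These 4 values are the 1 set among 32 with the right mean that also gave the deposited fold change within 0.01 on the log2 scale. The authors' deposited table put SOX9 at 55.9% of control, with 39.2% and 79.8% as the bounds of the 95% interval. Its DESeq2 adjusted p was 0.0643, so SOX9 was not called. The headers do not say which arm is the numerator, and every direction given here was read from the lower value of SOX9, so SOX9 is no check of the labels.

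The markers of PANC-1 were all tested, and smaller shares of those of other cells. All 8 markers of the line, which include SOX9 itself, were tested. The keratin KRT8 and the filament protein VIM had mean normalized counts of 203350 and 133073, while KRT7 had 354. EPCAM, an epithelial adhesion molecule, was the 1 that fell (log2 -1.76). Acinar markers (0 of 7) and leukocyte markers (0 of 4) had too few reads to be tested. Of the goblet or gastric mucous cell markers, 4 of 10 were tested, among them AGR2 at a mean normalized count of 9006. Of 5 fibroblast markers 2 were tested, and COL1A1, a collagen chain, rose by 0.98 on the log2 scale in the authors' deposited table (DESeq2 adjusted p 0.0445), while DCN had a mean normalized count of 4.37.

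MUC1, a membrane mucin with a signalling tail that most glandular epithelia express, had the most reads of the members, 379 over the 4 libraries. Its normalized counts were 55.7 and 120 in control A and B, and 89.6 and 120 in SOX9 siRNA A and B. The arms overlapped, with SOX9 siRNA A inside the range of the controls and SOX9 siRNA B at its upper edge. The authors' deposited table put MUC1 at 0.26 on the log2 scale (standard error 0.49), and the 95% interval of the ratio ran from 0.614 to 2.34. Its DESeq2 adjusted p was 0.940. Control B was 2.15 times control A, more than the ratio between the arms. TRIM46, the nearest listed gene on chromosome 1, showed the same order of libraries, with 50.4 and 181 normalized counts in control A and B and 103 and 193 in SOX9 siRNA A and B.

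MUC16 is a very large membrane mucin, shed into blood and measured as an ovarian cancer marker. It had 31.0 and 77.1 normalized counts in control A and B, and 53.3 and 90.4 in SOX9 siRNA A and B. Library B was the higher in both arms, and the arms overlapped. The authors' deposited table put MUC16 at 0.41 on the log2 scale (standard error 0.60, DESeq2 adjusted p 0.909). Its ratio had a 95% interval of 0.587 to 3.03. The ratio of a SOX9 siRNA library to a control library ranged from 0.692 to 2.92 over the 4 possible pairs. The neighbours of MUC16 on chromosome 19, ZNF558 and ZNF317, had mean normalized counts of 2658 and 2490 and stood at 0.12 and -0.16 in the authors' deposited table, without a call. MSLN, which encodes mesothelin, the surface protein that MUC16 binds, stood at 0.27 there and was not called.

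MUC3A, a membrane mucin of the intestinal brush border, was the 1 tested member with a value below 0. Its normalized counts were 37.1 and 52.8 in control A and B, and 29.2 and 36.4 in SOX9 siRNA A and B. The arms did not overlap, although SOX9 siRNA B and control A nearly met. Arms that did not overlap in this direction were found for 15.3% of the tested genes with recovered reads, and in either direction for 40.6%. The authors' deposited table put MUC3A at 73.0% of control, bounded by 33.1% and 161% (95%), and its DESeq2 adjusted p was 0.885. Its repeats resemble those of a near-identical copy and 2 unlisted genes overlap it in RefSeq, so the assignment of its reads is uncertain.

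**Figure D1:**
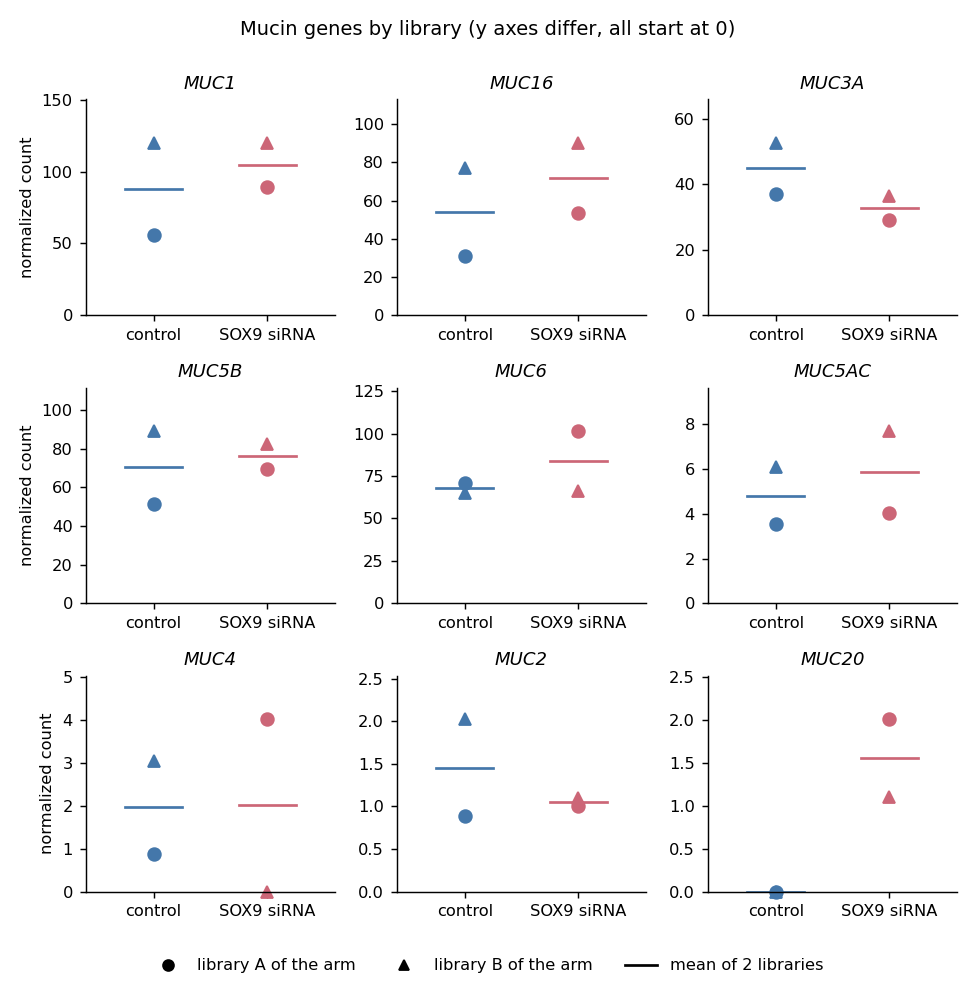
Normalized counts (y axis, a separate scale from 0 in each panel) of the 9 listed mucins in control and SOX9 siRNA libraries (x axis), with circles for library A, triangles for library B and bars for the mean of 2 libraries. For MUC1, MUC16, MUC3A and MUC5B library B lies above A in both arms, for MUC6 A lies above B in both, and MUC3A is the 1 tested member whose arms do not overlap.

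MUC5B, a gel-forming mucin of airway and salivary glands, had 51.3 and 89.3 normalized counts in control A and B, and 69.4 and 82.6 in SOX9 siRNA A and B. Both SOX9 siRNA libraries lay between the controls. For MUC5B the authors' deposited table gave a ratio of 1.08 (95% bounds 0.564 and 2.08, DESeq2 adjusted p 0.976). MUC5B overlaps the antisense gene MUC5B-AS1 in RefSeq, and the library kit keeps strand, but the strand setting of the counting is not stated.

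MUC6 is a mucin of gastric and duodenal glands, among others. It had 70.8 and 64.9 normalized counts in control A and B, and 102 and 66.1 in SOX9 siRNA A and B. It was the tested member with library A above B in both arms. SOX9 siRNA B fell inside the range of the controls and SOX9 siRNA A lay above it. The authors' deposited table put MUC6 at 0.31 on the log2 scale (DESeq2 adjusted p 0.910) with the smallest standard error of the 5, 0.45. The 95% interval of the ratio was 0.671 to 2.28.

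For all 5 tested members the larger ratio between libraries of 1 arm exceeded the ratio between the arms, and the order of libraries A and B was the same in both arms. Among all tested genes with recovered reads these were found for 72.1% and 68.6%, so neither sets the mucins apart.

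The 4 other listed mucins had too few reads for a test. MUC5AC, the gel-forming mucin of the gastric surface and of many pancreatic tumours, had 4 and 6 reads in control A and B and 4 and 7 in SOX9 siRNA A and B. The authors' deposited table put MUC5AC at 0.29 on the log2 scale, with a standard error of 1.44. MUC4, a membrane mucin that binds the receptor ERBB2, had 1 and 3 reads in control A and B and 4 and 0 in SOX9 siRNA A and B. MUC2, the gel-forming mucin of intestinal goblet cells, had 1 and 2 reads in control and 1 and 1 with SOX9 siRNA. MUC20, a membrane mucin described in kidney and other epithelia, had 0 reads in both control libraries and 2 and 1 in SOX9 siRNA A and B. With the limit that a count of 0 allows at 3 reads per arm, neither arm of MUC2 or MUC20 was above it, and no fold is given for either. No change in these 4 genes was tested, and a fall or a modest rise was not detectable at this depth.

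No row bore the symbol of MUC13, a membrane mucin of stomach and intestine, or an older name of it, and MUC13 was not analysed here. The least covered genes in the table had 2 reads over the 4 libraries.

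The promoters of the members were searched for ACAAAG and ACAATG, core forms of the motif that SOX proteins bind. The search was made because SOX9 is the siRNA target. RefSeq windows of 300 bases (GRCh38.p14), from 250 before to 50 after the gene start, were at hand for 6 members, and MUC5AC, MUC5B, MUC6 and MUC20 had none. On either strand, 16.1% of 35116 promoter windows held ACAAAG, 10.8% held ACAATG and 24.5% held at least 1 of them. Of the 6 members 1 held a match, MUC13, at 47 bases before its start, in the window chr3:124934702-124935001 on the minus strand. The windows of MUC1, MUC2, MUC3A, MUC4 and MUC16 held neither motif. The MUC13 window is printed as the 1 with a match, 5′ to 3′ on the strand of the gene, with the match in capitals, which is ACAAAG read on the other strand. A match is a description of letters and was not tied to binding or to a change in RNA.
MUC13: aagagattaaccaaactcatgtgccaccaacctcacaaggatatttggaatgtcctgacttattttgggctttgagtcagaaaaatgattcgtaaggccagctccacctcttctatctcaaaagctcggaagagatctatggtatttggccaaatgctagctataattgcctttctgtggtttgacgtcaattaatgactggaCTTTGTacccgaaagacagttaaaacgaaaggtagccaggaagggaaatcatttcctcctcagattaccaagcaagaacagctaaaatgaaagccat

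The standard errors of the 5 tested members ran from 0.45 for MUC6 to 0.60 for MUC16 on the log2 scale, against a median of 0.215 over all tested genes. At the largest p that was called, a gene with the median error needed a 1.64-fold change. The fold needed was 2.82 for MUC6, 3.02 for MUC5B, 3.10 for MUC1, 3.82 for MUC3A and 4.01 for MUC16. A rise of 1.5-fold lies inside the 95% interval of each of the 5. The mean normalized counts of the 5, from 38.9 to 96.3, had 5.99% to 15.1% of tested genes below them. Counts grow with transcript length, which was not used here, so levels of different mucins are not ranked.

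**Figure D2:**
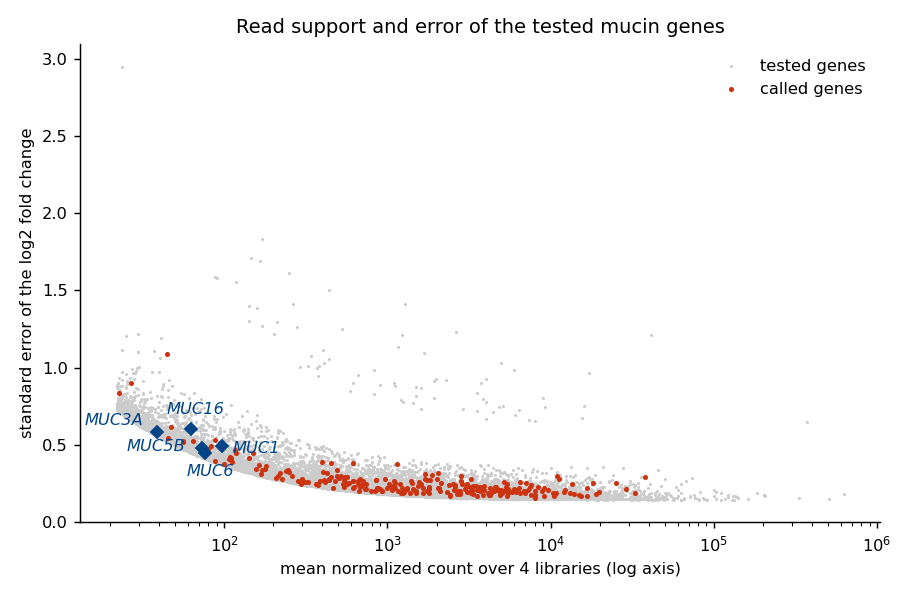
Standard error of the log2 fold change (y axis) against the mean normalized count over 4 libraries (x axis, log) for the 14063 tested genes, with called genes in red and the 5 tested mucins as labelled diamonds. The 5 mucins lie between 38.9 and 96.3 mean normalized counts, and their errors are 0.45 to 0.60.

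Of 16 other mucins and mucin-like genes, 7 were listed, 3 were tested and 0 were called, beside 1.81% of all tested genes. MUC12, a membrane mucin next to MUC3A on chromosome 7, had 75.2 and 89.3 normalized counts in control A and B, and 112 and 132 in SOX9 siRNA A and B. Both SOX9 siRNA libraries were above both controls, which was so for 25.3% of the tested genes with recovered reads. The authors' deposited table put MUC12 at 0.57 on the log2 scale (standard error 0.38, DESeq2 adjusted p 0.637). MUC17, the third mucin of that cluster, had 0 reads in control and 2 and 1 in SOX9 siRNA A and B. Neighbours in this cluster therefore differed in sign, with MUC3A at -0.45 and MUC12 at 0.57 in the authors' deposited table, and the difference between them was not tested. MCAM, an adhesion molecule, and CD164, a sialomucin, stood at 0.37 and -0.16 on that scale. CD164 had the narrowest interval of these genes, from 71.3% to 112% of control.

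The 4 gel-forming mucins lie side by side on chromosome 11 in the order MUC6, MUC2, MUC5AC and MUC5B. The genes at the 2 ends of the cluster had read support for a test, and those inside it did not. Outside the cluster, the authors' deposited table put AP2A2 beside MUC6 and TOLLIP beside MUC5B at 0.13 and -0.32 on the log2 scale, at mean normalized counts of 7557 and 6187. Neither neighbour was called. On chromosome 3, MUC20 and MUC4 are adjacent, and both had 8 reads or fewer over the 4 libraries. TNK2, the nearest listed gene on the other side of MUC4, had a mean normalized count of 2587 and stood at 0.34 on the log2 scale, without a call.

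Genes that build the sugar chains of mucins were not called. Of 30 enzymes that start and extend mucin-type O-glycans, 17 were tested, with 0 rises, 0 falls and a median log2 fold change of 0.04. Over all tested genes 1.81% were called, and 0 of 17 is near that share. At an unadjusted p under 0.05 the count was 2 of 17, near the 11.1% of all tested genes. The authors' deposited table put C1GALT1C1, the chaperone of the core 1 enzyme, at 0.86 on the log2 scale (DESeq2 adjusted p 0.180). GALNT2, which attaches the first sugar and was the most abundant of the list, stood at -0.39 there (DESeq2 adjusted p 0.227). Reads were recovered only at mean counts of at most 500, which left out GALNT2 at 14236. In limma on the recovered reads, 6 of these enzymes were fitted, and 0 were called with or without pairing.

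FCGBP was the 1 gene of mucus secretion that rose. It encodes a protein of intestinal and gallbladder mucus that is linked to gel-forming mucins. Its normalized counts were 204 and 232 in control A and B, and 444 and 375 in SOX9 siRNA A and B. Both SOX9 siRNA libraries were above both controls by at least 1.61 times. Of the tested genes with recovered reads, 25.3% had both SOX9 siRNA libraries above both controls, at any ratio. By the authors' deposited table FCGBP rose 1.88-fold (95% bounds 1.32 and 2.66, DESeq2 adjusted p 0.0331). On the recovered reads limma gave an adjusted p of 0.431 without pairing and 5.73e-05 with libraries paired by letter. That pairing was chosen from these data, so the lower value can be too small. Of 13 genes of mucus secretion 7 were tested, with 1 rise, 0 falls and a median of 0.06, beside 0.868% of all tested genes called higher. The call of FCGBP was lost with an empirical null (adjusted p 0.126), against a 1.5-fold change (1) and at an adjusted p under 0.01.

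The other tested secretion genes were not called. SYTL2, which tethers granules and was the most abundant of the list, was put at 0.20 on the log2 scale by the authors' deposited table. AGR2, a disulfide isomerase needed to fold gel-forming mucins, had a mean normalized count of 9006 and stood at -0.15 there, with a standard error of 0.80. TFF3, a small peptide secreted with mucins, had 28.3 and 138 normalized counts in control A and B, and 52.3 and 150 in SOX9 siRNA A and B. As for MUC1 and MUC16, library B was the higher in both arms. TFF1 and TFF2, the trefoil peptides of the stomach, had 43 and 83 reads in all and were not tested.

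Among 18 transcription factors of mucin-making epithelium 12 were tested, with 0 rises, 0 falls and a median of 0.33. The share called over all tested genes was 1.81%. The count at an unadjusted p under 0.05 was 4 of 12, beside 11.1% of all tested genes. SPDEF, a factor of goblet cell maturation, had 94.6 and 117 normalized counts in control A and B, and 226 and 162 in SOX9 siRNA A and B. The authors' deposited table put SPDEF at 0.88 on the log2 scale (DESeq2 adjusted p 0.231). FOXA1, a factor of gut and pancreas epithelium, had 510 and 140 normalized counts in control A and B, and 155 and 68.3 in SOX9 siRNA A and B. There FOXA1 stood at -1.54 (DESeq2 adjusted p 0.188). In each arm FOXA1 was higher in library A, and within each letter it was lower with SOX9 siRNA. The arms overlapped, as SOX9 siRNA A was above control B. In limma with 1 library left out, the log2 fold change of FOXA1 ran from -2.29 without control B to -0.43 without control A. SP1, a widely expressed factor and the most abundant of the list, stood at -0.02 in the authors' deposited table.

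The pairing of libraries changed the calls of this list. The libraries were paired by letter and so by size factor within each arm, since the labels' numbers could not be matched to them. Under these letters the library differences of both arms were correlated across genes. A pairing chosen from the same data can make the p-values of its fit too small. Reads were recovered only at mean counts of at most 500, which left out SP1 among others. In the paired limma fit 12.5% of all 4687 genes were called. Among the 8 factors with recovered reads 5 were called, 4 higher and 1 lower. Those higher were CREB3L1, a membrane-bound factor of secretory cells, SPDEF, the intestinal factor CDX2 and the epithelial factor KLF4. The limma adjusted p with pairing was 0.000226 for CREB3L1, 0.00207 for SPDEF, 0.0371 for CDX2, 0.0213 for KLF4 and 1.71e-09 for FOXA1, the 1 that fell. Without pairing limma called 0 of 8, and 3 had an unadjusted p under 0.05, beside 8.38% of all genes in that fit. The same paired fit called 0 of the 5 tested mucins, with adjusted p from 0.331 for MUC16 to 0.808 for MUC5B. SPDEF, CREB3L1, CDX2, KLF4 and FOXA1 were named after their values were seen.

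**Figure D3:**
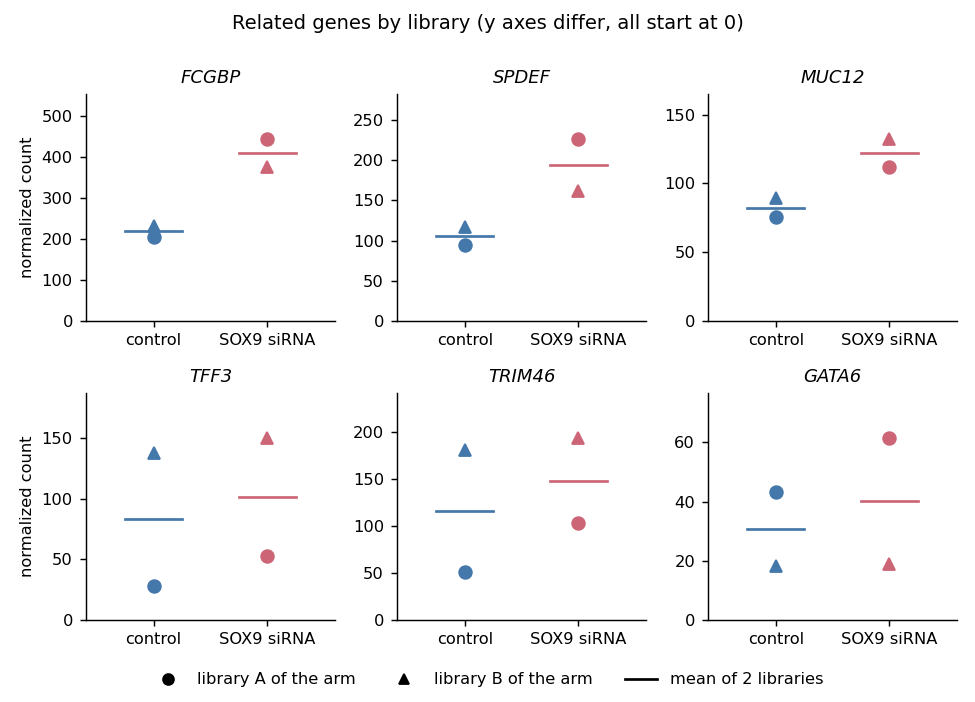
Normalized counts (y axis, a separate scale from 0 in each panel) of 6 genes named with the mucins, in control and SOX9 siRNA libraries (x axis), with circles for library A, triangles for library B and bars for the mean of 2 libraries. Both SOX9 siRNA libraries lie above both controls for FCGBP, SPDEF and MUC12, while TFF3, TRIM46 and GATA6 differ more between libraries A and B than between arms. Among all tested genes with recovered reads, these patterns were found for 25.3% and 72.1%.

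Partners of membrane mucins were also not called. Of 18 genes all 18 were tested, with 0 rises, 0 falls and a median log2 fold change of 0.08. That count of 0 is near the 1.81% called over all tested genes. At an unadjusted p under 0.05 the count was 2 of 18, near the 11.1% of all tested genes. These were the sheddases ADAM17 and ADAM9, which cut membrane proteins and which the authors' deposited table put at 0.44 and 0.34 on the log2 scale. Their DESeq2 adjusted p values were 0.264 and 0.359. ERBB2, the receptor that MUC4 binds, and EGFR, a receptor that associates with MUC1, stood at 0.06 and 0.13 there. LGALS1, a galectin and the most abundant of the list, had 0.31 there.

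**Figure D4:**
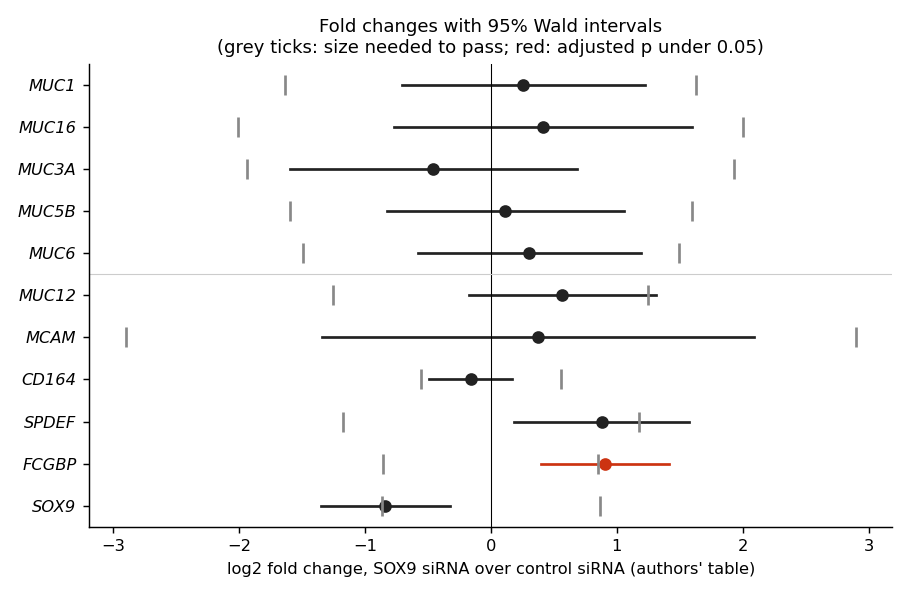
Log2 fold changes of SOX9 siRNA over control siRNA (x axis) with 95% Wald intervals for the 5 tested mucins, 3 mucin-like genes, SPDEF, FCGBP and SOX9 (y axis), from the authors' deposited table, with grey ticks at the size each gene needed to be called. Every interval of the 5 mucins crosses 0, and FCGBP is the 1 gene shown that was called.

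**Figure D5:**
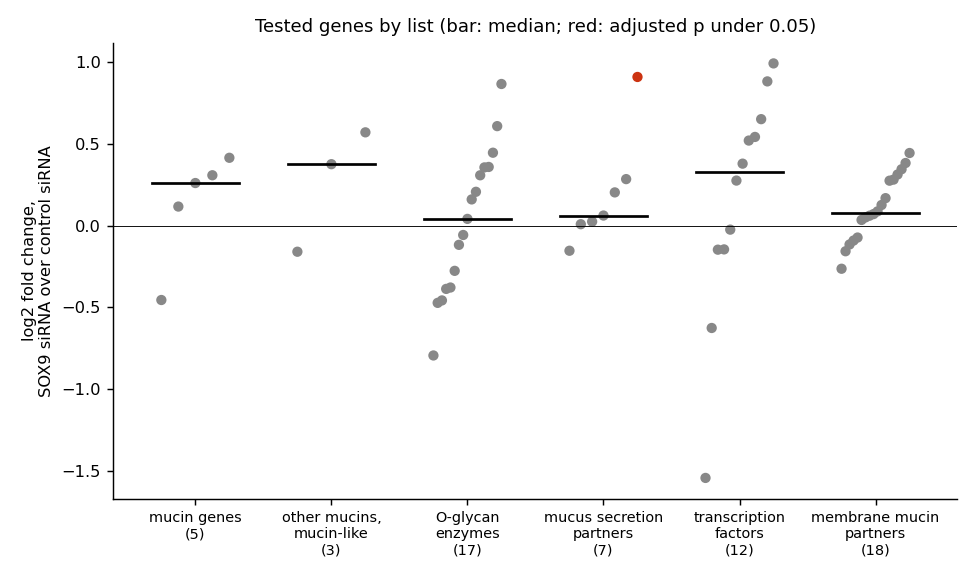
Log2 fold changes of SOX9 siRNA over control siRNA (y axis) of the tested genes of 6 lists (x axis, number tested in brackets), with a bar at each median and called genes in red. The 5 mucins range from -0.45 to 0.41 and FCGBP among the secretion partners is the 1 call.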

How the data were processed

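The authors deposited 1 DESeq2 comparison of 4 PANC-1 RNA libraries. HISAT2 2.0.5, featureCounts and DESeq2 1.18.1 stand in the submitters' processing notes without settings, which also list hg19 and mm10 without saying what each was used for. Per the file headers, the first value of each gene is a mean normalized count, a signal that the authors averaged over the libraries. Fold changes and errors were deposited on the log2 scale, the Wald statistic is the authors' score, and each p-value was deposited with an adjusted p-value where one was given. The 5767 genes lacking one had mean counts of at most 21.93. Reads per library are not columns of the table.

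Intervals are 1.96 standard errors each way and cover the error of the authors' fit. Whole reads were sought for the 10457 genes with a mean count of at most 500, at a relative tolerance of 1e-14, and 10454 had 1 set. On simulated data with 500 known sets, 500 were recovered. The fold needed for a call is the Wald statistic at the largest called p, 3.32, times the standard error, taken off the log2 scale. limma 3.58.1 (voom) was fitted to the 4687 tested genes with 1 set, a test chosen after seeing the data, since the plan assumed the authors' values alone. Under the letters, the library differences of both arms were correlated (r = 0.61). The pairing by letter followed size factors within each arm and not the labels, and it was chosen from these data. The p-values of the paired fit can therefore be too small.

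Named genes were all members, SOX9, tested mucin-like genes, called genes and the most abundant uncalled gene of each list, and neighbours in RefSeq order. Others were named after their values were seen. The members and lists were chosen with earlier results of these data known. Lengths of coding sequences were not used here. The 2 ChIP-seq samples were not analysed here. Alternatives were other thresholds, filters, centring, an empirical null, a test against 1.5-fold, and leaving out each library.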

Additional observations from a re-analysis of the deposited data

How the results depend on the processing

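The count of mucin genes called was 0 under the 13 alternatives that tested a member, limma included, and a mean count of at least 100 left no member to test. The lowest adjusted p of a tested member under any of them was 0.331, for MUC16 in the limma fit with the replicate block. That block, by the pairing of libraries A and B, gave 0 called mucins and raised the calls over all genes of the fit from 0 to 588. An adjusted p under 0.01, the empirical null and the test against 1.5-fold are stricter than the main setting. They could only keep a count of 0 mucins. Without control A, control B, SOX9 siRNA A and SOX9 siRNA B limma called 0, 2, 0 and 0 genes and 0 mucins, with the lone library of an arm assumed to vary like the other arm. Changes of threshold, filter, null or tested fold left each log2 value as it was, so those values could not turn. Of 65 values of the 5 tested members under alternatives, those included, 4 turned in direction, all in fits without 1 library. They were MUC1 (-0.21), MUC5B (-0.24) and MUC16 (-0.15) without control A and MUC6 (-0.034) without SOX9 siRNA A, none of them called, and the cause was not tested. Leaving out 1 library gave ranges of log2 fold change from -0.21 to 0.89 for MUC1, -0.69 to -0.19 for MUC3A, -0.24 to 0.56 for MUC5B, -0.034 to 0.58 for MUC6 and -0.15 to 1.15 for MUC16. The median of the 5 members, 0.26, ranged from -0.19 without control A to 0.57 without control B, and was -0.018 without SOX9 siRNA B. Its direction therefore rests on single libraries. It was 0.27 after centring on all tested genes, 0.31 after centring on genes with a mean count of at least 1000, and 0.28 without MUC3A and MUC20. The minimum of 100 gave no median. The call of FCGBP was lost at an adjusted p under 0.01, with an empirical null (adjusted p 0.126), against a 1.5-fold change (1) and in limma without the block (0.431). It was also lost in limma without each library in turn (0.187 to 0.985), while its log2 fold change stayed between 0.78 and 1.03. Recovery of reads gave 10454 single sets at a tolerance 10 times wider too. Levels per coding length were not run.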
